A study of Canis lupus familiaris with 6 samples.

Results

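miR-199 and miR-140 (cfa-miR-199 and cfa-miR-140 in the files) are 2 of the 289 canine miRNAs measured in sorted canine mammary cancer cells. They were taken by name from the array's annotation, which gives them 5 of 656 probes and 80 of 11560 spots on each array, and they were chosen by their signals as mesenchymal and stromal miRNAs that were far lower on the bright Sca1+ array than on the bright Sca1- arrays. Those levels are therefore a description, with no test. The cells came from 3 established lines (CMT-U27, CMT-U309 and P114). Antibodies to Sca1 (stem cell antigen 1), found on stem and progenitor cells of mice, were used in a flow sorter to divide each line into Sca1+ cells, labelled cancer stem cells, and Sca1- cells, labelled control. Each line gave 1 Sca1+ and 1 Sca1- sample, so there were 3 samples per fraction. All cells grew in the same serum-containing medium. A sample description gives macrophages as company in culture for the 2 P114 samples, and mono-culture for the other 4. Nothing says that the samples of a fraction came from separate cultures beyond coming from different lines, so the p-values reflect no more than how these samples vary, part of which may be technical. Total RNA was hybridised to 1-colour Agilent miRNA arrays, all 6 on 1 slide.

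miRNAs are short RNAs that pair with messenger RNAs, mainly through a seed near their 5′ end, and lower the output of their targets. miR-199 is made from genes that lie within dynamin genes. In humans and mice it is typical of fibroblasts and other mesenchymal cells and low in epithelial cells. miR-140 lies within WWP2, a ubiquitin ligase gene, and is best known for its high level in cartilage, with roles also described in mammary stromal and stem cells. The current dog annotation (RefSeq, UU_Cfam_GSD_1.0) places MIR140 within WWP2 on chromosome 5, MIR199-1 within DNM2 on chromosome 20, MIR199-2 within DNM3 on chromosome 7 and MIR199-3 within DNM1 on chromosome 9. MIR214 is the only other miRNA gene within 10 kb of any of these, beside MIR199-2.

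The probes are shown because they fix which end of each miRNA was read and because the results differ from probe to probe. Each is antisense to its miRNA, read 5′ to 3′, and capitals mark the bases by which a probe is longer than the shortest of its set.
miR-199, 16-base probe: aaccaatgtgcagact
miR-199, 17-base probe: aaccaatgtgcagactA
miR-199, 18-base probe: aaccaatgtgcagactAC
miR-140, 14-base probe: tccgtggttctacc
miR-140, 15-base probe: tccgtggttctaccC
The longest miR-199 probe is complementary to gtagtctgcacattggtt and the longest miR-140 probe to gggtagaaccacgga. In each case the stretch belongs to the arm from the 3′ side of the hairpin as it is known in humans, so these probes did not measure the arms from the 5′ side. The file places the 18-base miR-199 probe at 3 loci of canFam2, chr7:29778237-29778254, chr9:58606474-58606491 and chr20:53414731-53414748, so the signal sums over 3 gene copies and cannot be split between them. The 15-base miR-140 probe is placed at chr5:82820560-82820573, listed in descending order, an interval of 14 bases and so 1 base shorter than the probe. The longest run of bases that any other miRNA's probe shared with these was 8, with a probe of miR-504 for miR-199 and probes of miR-10b and miR-182 for miR-140.

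The arrays differed widely in brightness, and the deposited tables do not agree on which sample each array is. An array with over 50 detected miRNAs is called bright here (B1, B2 and B3, with 111, 91 and 89 detected miRNAs) and the others dim (D1, D2 and D3, with 39, 22 and 9). The summed signal of detected miRNAs lay between 69282 and 70794 intensity units on the bright arrays and between 319.5 and 3228 on the dim ones. Of the 6 columns of the deposited value table, 2 hold the values of their own sample's scanner file and 4 hold those of a different sample. B1 and D1 were Sca1+ and B2 and B3 were Sca1- by either source, while D2 and D3 change fraction between the sources. By scanner file, B1 and B2 were the Sca1+ and Sca1- cells of CMT-U309, D1 and D2 those of CMT-U27, and D3 and B3 those of P114. The value table instead makes D1 and B2 the Sca1+ and Sca1- cells of CMT-U27, D2 and D3 those of CMT-U309, and B1 and B3 those of P114. By value table the Sca1+ samples also shared one row of the slide and the Sca1- samples the other, so fraction and row cannot be told apart in that reading, and B1 lay in the other row from B2 and B3 whichever reading is right.

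miR-199 was detected on the bright Sca1- arrays, B2 and B3, alone. Its total gene signal, which the authors' software sums over the detected probes of a miRNA, was 245 ± 22.5 on B2 and 193 ± 17.8 on B3 (intensity units ± the software's error estimate). It was not detected on B1, D1, D2 or D3. The dim arrays, among which D2 is Sca1- by scanner file and D3 by value table, could show it barely or not at all, as given below. Fewer cells that make the miRNA and less miRNA per cell cannot be told apart in such bulk samples. miR-199 made up 0.346% of the summed signal on B2 and 0.275% on B3. On B1, a Sca1+ array as bright as these, those shares would have been signals of 240 and 191.

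miR-140 had a low but detected signal on the bright Sca1+ array. Its total gene signal was 19.9 ± 4.17 on B1, against 390 ± 29.1 on B2 and 430 ± 31.4 on B3, and it was not detected on any dim array. This was 0.0287% of the summed signal on B1, against 0.551% on B2 and 0.613% on B3. These are the values the members were chosen by, with 1 bright array on the Sca1+ side.

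**Figure D1:**
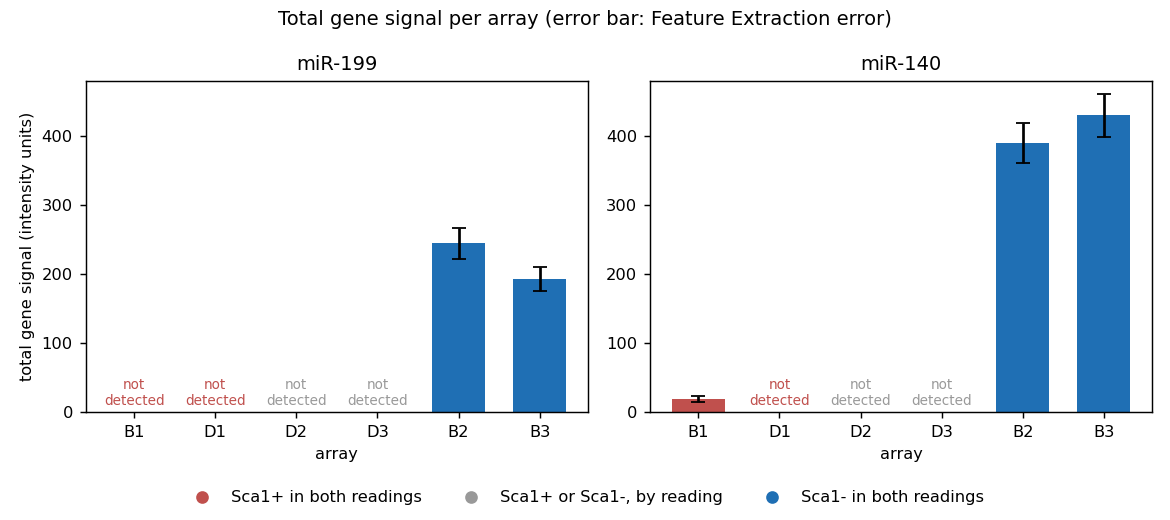
Total gene signal of miR-199 (left) and miR-140 (right) in intensity units on each array, with the Feature Extraction error as bars and arrays coloured by sorted fraction. miR-199 was detected on B2 and B3 alone, and miR-140 at 390 and 430 on these and at 19.9 on B1.

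The 40 spots of each miRNA are the values behind the total gene signals, so they describe the difference and do not test it. On the 18-base miR-199 probe the 13 spots of B1 had processed intensities from 2.66 to 12.0 with a median of 6.51, against 234 to 260 with a median of 250 on B2 and 160 to 208 with a median of 191 on B3. The spots of B1 did not overlap those of B2 or B3. None of the 13 was well above background on B1, and all 13 were on each of B2 and B3. The negative control spots of B1 averaged 2.16 ± 2.39 (SD over 421 spots), so the mean of 6.89 ± 2.97 (SD over 13 spots) for this probe lay above the mean of the background spots. Its total probe signal on B1 was 6.07 ± 2.46, short of the 3 error units that the software requires, which came to 7.39. That rule held throughout the files: the detected flag equalled "at least 1 probe above 3 times its error" for all 1734 combinations of miRNA and array.

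The shorter miR-199 probes carried less signal. The 17-base probe had spot means of -0.820 ± 2.09 on B1, 32.5 ± 2.23 on B2 and 23.3 ± 3.84 on B3 (SD over 13 spots). The 16-base probe averaged -1.72 ± 2.66 on B1, 4.70 ± 2.69 on B2 and 3.79 ± 2.73 on B3 (SD over 14 spots), and no spot of it was well above background on any array. The total gene signal of miR-199 therefore rests on the 17-base and 18-base probes, with 28.4 and 216 units on B2 and 20.8 and 172 on B3. All 3 probes had lower means on B1 than on B2 and B3, though on the 16-base probe the spots of B1 overlapped those of both.

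Both miR-140 probes were bright on B2 and B3. On the 15-base probe the 20 spots ran from 5.54 to 18.3 with a median of 13.9 on B1, against 139 to 194 with a median of 162 on B2 and 158 to 220 with a median of 181 on B3. On B1, 12 of the 20 spots were well above background. On the 14-base probe the spots ran from 0.783 to 12.5 with a median of 6.44 on B1, against 106 to 139 with a median of 125 on B2 and 120 to 150 with a median of 134 on B3. B1 did not overlap B2 or B3 on either probe. The spots of 1 array share 1 RNA sample, so their spread shows the precision of the array and not that between cultures.

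**Figure D2:**
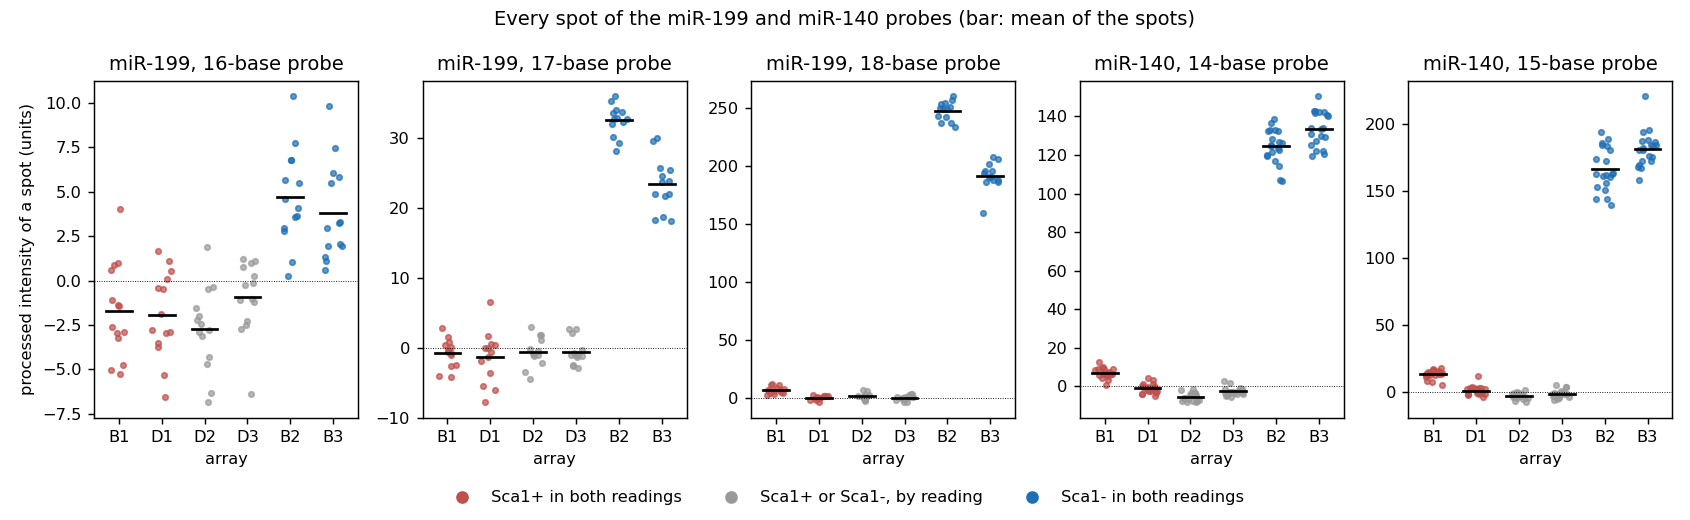
Processed intensity of every spot of the 5 probes on each array, with the mean as a bar and a separate linear axis for each probe. On the 17-base and 18-base probes of miR-199 and on both miR-140 probes the B2 and B3 spots stand clear of all other arrays, while the 16-base probe reaches at most 10.4 units.

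The size of the miR-140 difference depended on which probes entered it. By total gene signal B1 was 19.6-fold lower than B2 and 21.6-fold lower than B3. The 14-base probe had a signal of 9.34 ± 3.79 on B1, under its limit of 11.4, and was left out of the total there but counted in full on B2 and B3. With both probes summed on every array, B1 had 29.2 units against 390 on B2 and 430 on B3, which is 13.4-fold and 14.7-fold lower. On the 15-base probe alone B1 was 11.2-fold lower than B2 and 12.4-fold lower than B3. The total gene signal thus gave a larger difference than the same probes summed alike on each array.

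After scaling of the 3 bright arrays by the 75th percentile of probes well above background on all of them, miR-140 was lower on B1 than on B2 and B3 by 14.8-fold (log2 level -4.34 on B1, against -0.46 ± 0.35 on B2 and B3, SD, n = 2). miR-199 had only a bound on B1, because its brightest probe was not well above background there. With the lowest signal of a probe well above background on B1 in its place, B1 was at least 21.4-fold lower than B2 and B3 (log2 level -0.11 ± 0.01 on these, SD, n = 2). With 1 Sca1+ array no test was made, and these members were chosen with this contrast in view. Among the 90 miRNAs detected on at least 2 of these arrays, 3.33% were lower on B1 by at least 8-fold: miR-199, miR-140 and miR-34a. Among the 123 miRNAs detected on any bright array, 3.25% were detected on B2 and B3 and not on B1, and miR-199 was among these 4. Normexp background correction, which adds an offset of 50 units, reduced the differences to 1.62-fold for miR-140 and at least 1.95-fold for miR-199. The mean over all probes, which takes in the dim 16-base probe, reduced the bound for miR-199 to at least 2.62-fold.

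B2 and B3 are Sca1- cells of different lines in either reading, and B3 is P114, described as grown with macrophages. miR-140 had 430 units on B3 and 390 on B2, and the difference of 39.8 was within its error estimate of 42.8. miR-199 had 193 units on B3 and 245 on B2, a ratio of 0.788, and the difference of -51.9 was larger than its error estimate of 28.7. The ratios were alike between the probes of a miRNA: 1.11 on the 15-base and 1.09 on the 14-base probe of miR-140, and 0.796 on the 18-base and 0.732 on the 17-base probe of miR-199. These ratios are of unscaled signals, and the order of B3 and B2 turned with the scaling. The log2 difference B3 minus B2 of miR-199 was 0.01 with the scaling of the bright arrays and ran from -0.52 with the scaling of all 6 arrays to 0.39 where all probes set the scale. That of miR-140 was 0.49 with the scaling of the bright arrays and ran from -0.04 to 0.87 over the same settings. With 1 sample of each kind, line, culture and the individual sample cannot be told apart.

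The dim arrays could show these miRNAs barely or not at all. On D1, Sca1+ cells of CMT-U27 in both readings, the 18-base miR-199 probe had a signal of 0.457 ± 2.14 and the 15-base miR-140 probe one of 0.958 ± 3.31, with detection limits of 6.43 and 9.92. At the shares of the summed signal found on B2, the probes would have had 9.87 and 10.2 units on D1, above their limits. At their ratios to let-7a on B2 they would have had 9.04 and 9.32 units, above the limit for miR-199 and below it for miR-140. At their ratios to miR-21 they would have had 4.35 and 4.48, below both limits. Whether D1 could have shown a Sca1- level of either miRNA therefore depends on the quantity that B2 and D1 are compared by. On D2 the signals were 0.513 ± 2.27 for miR-199 and -3.22 ± 3.49 for miR-140, and on D3 they were 0.106 ± 2.02 and -1.85 ± 3.11. The share on B2 would have given 3.90 and 4.02 units on D2 and 0.977 and 1.01 units on D3, all below the limits, so a level like that of B2 was not detectable there.

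**Figure D3:**
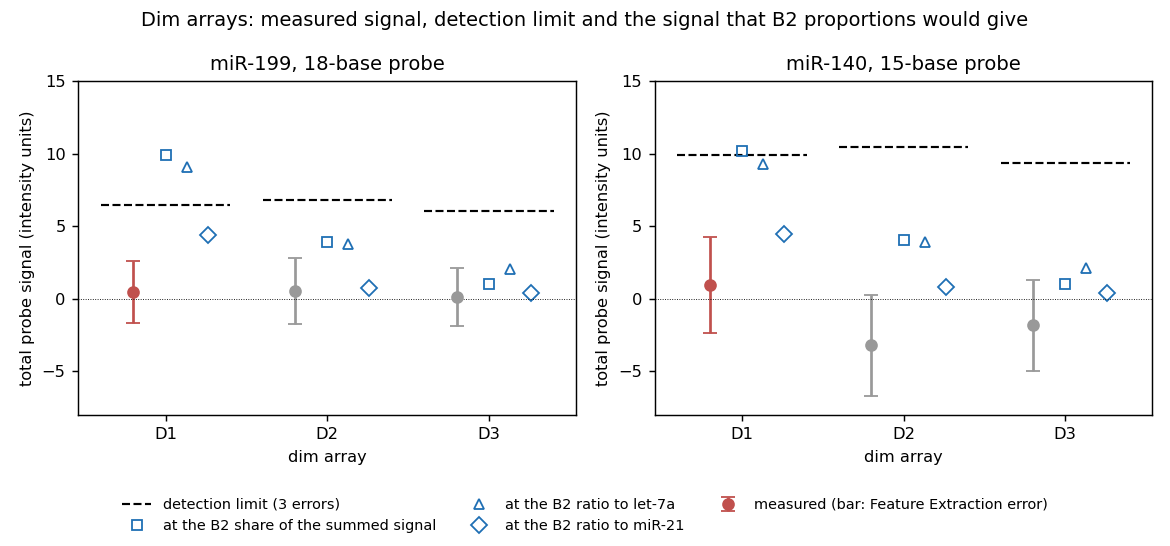
Total probe signal in intensity units of the brightest miR-199 probe (left) and miR-140 probe (right) on the 3 dim arrays, with the Feature Extraction error, the detection limit of 3 errors (dashed) and the signals that B2 proportions would give (open symbols). For miR-199 on D1 the B2 share (9.87) and the B2 ratio to let-7a (9.04) lie above the limit of 6.43. For miR-140 on D1 the B2 share (10.2) lies above the limit of 9.92 and the B2 ratio to let-7a (9.32) below it. On D2 and D3 every open symbol lies below its limit.

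Sca1+ and Sca1- cells were then compared over all 6 arrays within lines, the question the sort was made for. Of the 80 miRNAs detected on at least 3 arrays, 0 passed an adjusted p of 0.05 with limma (0%, with 0 at an unadjusted p under 0.05 and a smallest adjusted p of 0.995). miR-140 was among the 80 and miR-199, detected on 2 arrays, was not. Since B1, B2 and B3 chose the members and enter this fit, the members' own differences are given as a description. Over the 3 pairs the log2 difference of miR-140 averaged -3.70 with an SE of 2.87. It was -0.38 without either P114 sample, -7.27 without either CMT-U27 sample, -1.43 with a floor at the detection limit and -0.03 after normexp. By line the scanner files gave 3.44 in CMT-U27, -4.20 in CMT-U309 and -10.33 in P114. Only the CMT-U309 value had miR-140 detected in both fractions, and in CMT-U27 it was detected in neither. The other 2 values therefore have no exact size, and that of CMT-U27 has no sure sign. By value table the differences were -9.33 in CMT-U27, -2.40 in CMT-U309 and -4.16 in P114, the last of these with miR-140 detected in both fractions. In CMT-U309 it was detected in neither fraction, so the -2.40 has no sure sign. In that reading the average was -5.30 with an SE of 1.60, and again 0 miRNAs passed, with 3 of the 80 at an unadjusted p under 0.05 (limma, smallest adjusted p = 0.792).

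miR-199 was fitted with the 92 miRNAs detected on at least 2 arrays, a filter chosen after the data were seen. Over the 3 pairs its log2 difference averaged -4.44 with an SE of 1.94, and 0% of the 92 passed (limma). The average was -1.72 with a floor at the detection limit and -0.21 after normexp. The differences were -1.45 in CMT-U27, -6.00 in CMT-U309 and -5.88 in P114 by scanner file, and -8.38, -0.53 and -5.47 in the same lines by value table, where the average was -4.80 with an SE of 1.73. No pair had miR-199 detected in both fractions, so none of these values has an exact size. The -1.45 and the -0.53 come from pairs with it detected in neither fraction, so they have no sure sign. All tested miRNAs had a median log2 difference of -0.81 by scanner file, and 63 of the 80 had values below 0.

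The 3 lines were also compared with limma. B1, B2 and B3 chose the members and enter this fit too, so it cannot test miR-140 or miR-199 and their p-values are not given. By scanner file 0% of 80 miRNAs passed, with 4 at an unadjusted p under 0.05. Of the same 80, 17.5% passed with the arrays assigned by value table. In that reading both CMT-U309 arrays are dim and both P114 arrays bright, so line and brightness cannot be fully told apart. Neither miR-140 nor miR-199 was detected in CMT-U309 there. By scanner file the dim pair is CMT-U27, where neither was detected. P114 is the line in which miR-140 and miR-199 were detected in either reading.

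The other miRNAs listed as mesenchymal and stromal were read beside them. Of 7 on the array, 3 were detected on at least 1 of the 6 arrays: miR-199, miR-140 and miR-21. Of all 289 miRNAs, 124 were, so the list was detected about as often as the rest. miR-214, encoded beside MIR199-2, was detected on none of the 6 arrays, and neither were miR-143 and miR-145, a smooth muscle and fibroblast pair, nor miR-218. miR-21, abundant in many tumours and tissues, had signals of 18172 on B1, against 32139 on B2 and 31945 on B3, and was 2.22-fold lower on B1 after scaling. That log2 difference of -1.15 is the list's only value beside those of the 2 members, against a median of 0.04 for all 90 miRNAs. The list was itself set with earlier results of these data known, so this value too is a description. In the fit of all arrays miR-21 had a log2 difference of -1.38, where 63 of all 80 miRNAs had values below 0.

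The epithelial list was higher on B1 than on the other bright arrays. B1 had 5 of its 7 miRNAs detected with a summed signal of 5129, against 1 with 28.9 on B2 and none on B3. Of all 289 miRNAs, 111, 91 and 89 were detected on B1, B2 and B3. This list too was set with earlier results of these data known, so its values are a description. miR-141 and miR-200c, which repress the ZEB factors and help keep epithelial character, had signals of 2839 and 1427 on B1. On B2 miR-141 had 28.9 and miR-200c was not detected, and on B3 neither was. Of the dim arrays only D2 had one detected, miR-141 at 23.9, and miR-199 was detected on none of them. miR-200a and miR-200b were detected on no array. In the fit of all arrays by scanner file, miR-141 was the 1 epithelial miRNA tested, with an average log2 difference of -3.05. Only the CMT-U309 pair, B1 and B2, had it detected in both fractions, and there it was higher in Sca1+ cells. After scaling of the bright arrays its log2 difference of B1 over B2 and B3 was 6.01. Each of the other pairs had an undetected side, so the average of -3.05 has no exact size.

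Markers of other cell types were also read. Of the 6 leukocyte and macrophage miRNAs, B1 had 3 detected with a summed signal of 948, against 2 with 219 on B2 and 3 with 182 on B3. The dim arrays had 1 each, with signals of 59.6 to 65.7. Of all 289 miRNAs, 111, 91 and 89 were detected on B1, B2 and B3, and 39, 22 and 9 on D1, D2 and D3. miR-223 was detected on all 6 arrays, at 59.6 to 80.9. The summed signal of detected miRNAs ran from 319.5 on D3 to 70794 on B2, so the miR-223 signal did not follow it in proportion. How much of that signal is miR-223 from the cells was not tested. miR-155 was detected on B1, B2 and B3, miR-146a on B1 alone and miR-146b on B3 alone. miR-142 and miR-150 were detected on no array. miR-126 of endothelium and all 6 muscle miRNAs were also undetected. Of 2 erythroid miRNAs on the array, miR-451 was detected on B2 and D2 at 18.1 and 39.4. The part of such cells in the miR-199 and miR-140 values was not tested.

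**Figure D4:**
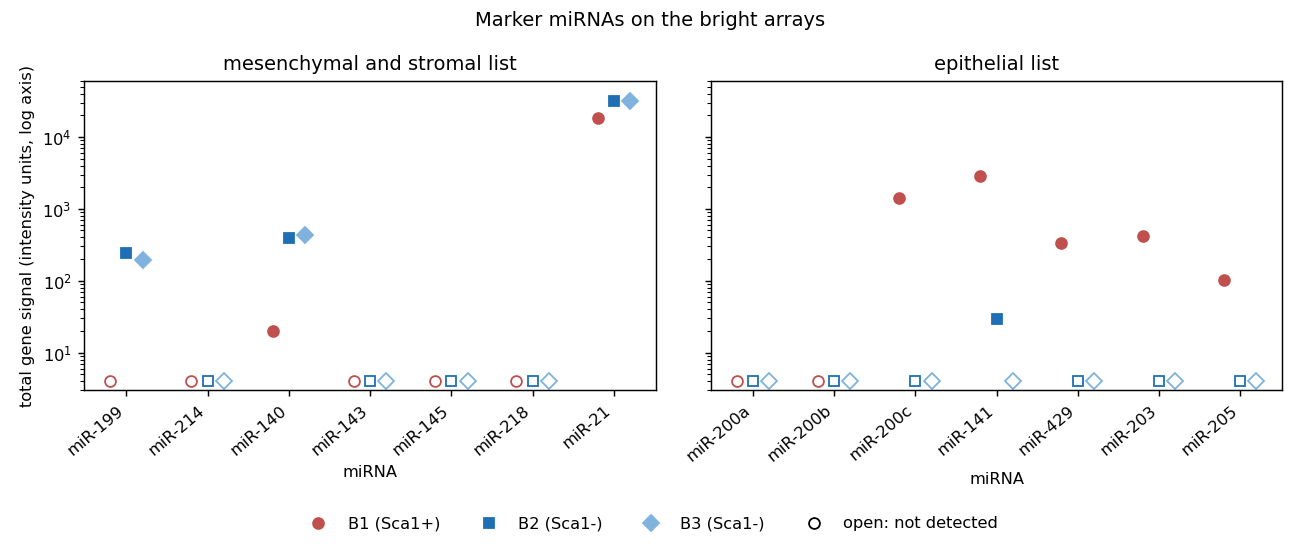
Total gene signal on a log axis of the mesenchymal and stromal list (left) and the epithelial list (right) on B1, B2 and B3, with open symbols at the foot for miRNAs that were not detected. Within each miRNA, miR-199, miR-140 and miR-21 are lower on B1 than on B2 and B3, and 5 of 7 epithelial miRNAs were detected on B1 and at most 1 on B2 and B3. Of all 289 miRNAs, 111, 91 and 89 were detected on B1, B2 and B3.

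The miRNAs most like miR-140 over the 3 bright arrays were miR-34a, let-7e, miR-221, miR-222 and miR-149, by the root mean square distance of centred log2 total gene signals among 88 miRNAs. The distances were 0.479, 0.998, 1.12, 1.45 and 1.59. miR-34a, a transcriptional target of p53, had 37.5 units on B1, against 444 on B2 and 363 on B3. let-7e, a member of the let-7 family that rises with differentiation, had 50.7 units on B1, against 206 on B2 and 292 on B3. Over all 6 arrays the highest Pearson correlations of scaled log2 total gene signal with miR-140 were 0.993 for miR-34a, 0.978 for let-7e, 0.916 for miR-24, 0.906 for miR-151 and 0.894 for miR-99a. These 6 points fall into bright and dim arrays, and none of these miRNAs was detected on a dim array, so the correlations largely describe that split.

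For miR-199 the smallest distances were 0.794 for miR-99b, 1.30 for miR-204 and 1.52 for miR-125a, followed by 3.61 for miR-34a and 4.17 for let-7e. The first 3 are the other miRNAs detected on B2 and B3 and not on B1. miR-99b had 80.3 units on B2 and 57.4 on B3, miR-204 had 26.9 and 57.0, and miR-125a had 31.8 and 17.8. Undetected values stand at 0.1 in the files, so these distances have no exact size. Over all 6 arrays the highest correlations with miR-199 were 0.661 for miR-34a, 0.583 for let-7e, 0.530 for miR-21, 0.424 for miR-24 and 0.399 for miR-361, among 79 miRNAs detected on at least 3 arrays. miR-199 stands at 0.1 on every array but B2 and B3. Among those arrays its scaled values differ by the scaling alone, so these correlations have no exact size either.

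**Figure D5:**
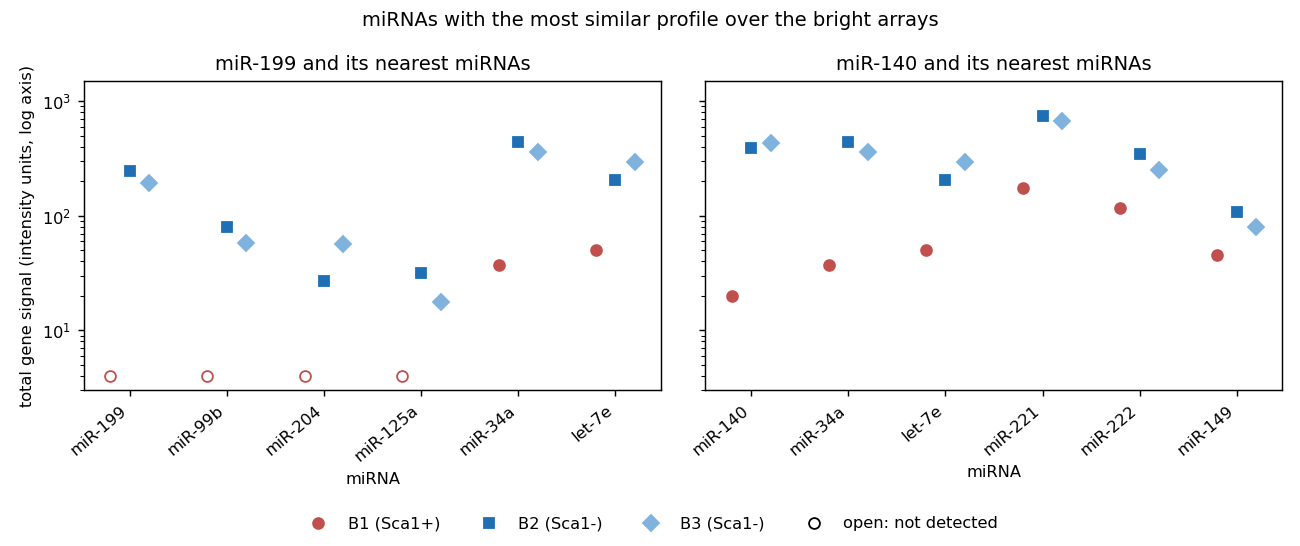
Total gene signal on a log axis of miR-199 (left) and miR-140 (right) and the 5 miRNAs nearest to each over B1, B2 and B3, with open symbols at the foot for miRNAs that were not detected. The B1 symbol is the lowest of the 3 for every miRNA drawn.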

How the data were processed

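miRNA levels were measured on 6 arrays. The deposited scanner files hold spot intensity from Agilent Feature Extraction 10.10.1.1 per the file headers (10.7.3.1 per the submitters' processing notes), with a fitted spatial background surface subtracted and no scaling between arrays. The deposited value table equalled the total gene signals of the scanner files (relative tolerance 0.0001) with 4 arrays at other samples, and was used for the second reading of the samples. Arrays were scaled to the 75th percentile of the 10 probes, from 6 miRNAs, that were well above background on all 6 arrays, or of the 122 such probes on the bright arrays. Values of 0 or less took the array's smallest positive one before log2. Spots were averaged without control and outlier spots, and a miRNA took the probe with the highest mean log2 level. Tests used limma 3.58.1 (R 4.3.3; lmFit, eBayes) on miRNAs with detection on 3 or more arrays, after a trial on simulated data, with the Benjamini-Hochberg adjustment and 2 residual degrees of freedom. The simulated arrays varied far less than these arrays do, so the trial does not show what could be called here. The line was a block, since both fractions of a line were sorted from it. The number of arrays limits the precision. Named miRNAs were the 2 members, the listed markers and the 5 nearest miRNAs by each measure of likeness. The members and lists were chosen with earlier results of these data known. Alternatives covered the background, scaling, floor, summary, filter, block, sample assignment and each sample left out.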

Additional observations from a re-analysis of the deposited data

How the results depend on the processing

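The count of miRNAs past the threshold between Sca1+ and Sca1- cells was 0 in the main analysis and under all 16 alternatives run, with smallest adjusted p-values from 0.661 to 1.00 (limma). The log2 differences of miR-140 and miR-199 were below 0 under all 16 alternatives of each, from -7.27 (without either CMT-U27 sample) to -0.03 (normexp) and from -6.28 (total gene signals) to -0.21 (normexp). The members were chosen by B1, B2 and B3, which enter these fits, so the shared sign is a description and no test. Leaving out either sample of a line gave the same difference, so the alternatives are not 16 separate checks. Leaving out 1 sample gave -7.27 to -0.38 for miR-140 and -5.94 to -3.67 for miR-199. The median over all 80 miRNAs was -0.81 and became -0.37 where all probes set the scale, -0.51 with quantile scaling, -1.87 without scaling and 0.60 after normexp. Without the replicate block, in which the line pairs the samples, the SE was 3.80 for miR-140 and 2.15 for miR-199, the differences kept their size and 0 miRNAs passed. Among the lines, 14 miRNAs passed with the arrays assigned by the value table and 1 with total gene signals. Leaving out 1 sample at a time gave 0 there. For B1 over B2 and B3 the log2 difference of miR-140 was -3.89 and became -0.70 after normexp, -4.35 where all probes set the scale, -4.28 with quantile scaling, -4.92 with total gene signals and -4.29 with the mean of all probes. The log2 bound of miR-199 was -4.42 and became -0.97 after normexp, -4.87 where all probes set the scale, -4.71 with quantile scaling, -4.10 without scaling, -4.31 with a floor at the detection limit, -4.92 with total gene signals and -1.39 with the mean of all probes. Leaving out B3 or B2 moved them to between -4.14 and -3.64 and to between -4.42 and -4.41. The offset of 50 units in normexp is larger than the miR-140 and miR-199 signals on B1. Signal over background limits all values on D1, D2 and D3.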
